A study of Mus musculus with 6 samples.

Results

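The genes described here are 10 genes of the zona glomerulosa, the outer cell layer of the adrenal cortex that makes aldosterone: Cyp11b2, Agtr1a, Agtr1b, Dab2, Vsnl1, Kcnk3, Kcnk9, Cacna1h, Hsd3b6 and Oca2. They were read from every probe set whose platform annotation names exactly 1 gene and whose symbol is one of these 10. Of the 44935 usable probe sets on the array, 15 met this rule, and they covered 8 of the 10 genes. No probe set named Kcnk9, and Hsd3b6 was named by 1 probe set that also names Hsd3b3 and Hsd3b2, so neither gene has a value of its own. The glands came from male Per2Brdm1/Cry1-/- (C57BL6x129Sv) mice aged 3 months. Both groups thus carry mutations in the clock repressors Per2 and Cry1, and the labels call the animals clock-deficient. After 2 weeks in a light-dark cycle the mice were moved to constant darkness, and whole adrenals were taken 46 h (3 arrays) or 54 h (3 arrays) after lights off. The replicates of each time point, 1 array each, are called 1, B and C. Wild-type glands were not analysed here, so the comparison is between time points 8 h apart in mutant glands. The labels do not say whether an array holds 1 animal or a pool, so p-values measure the spread between arrays, which may be technical.

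Aldosterone output is set mainly by angiotensin II and by extracellular potassium. Glomerulosa cells hold a very negative membrane potential through background potassium channels of the TASK type (Kcnk3, Kcnk9), and depolarisation or angiotensin II opens calcium channels such as the T-type channel encoded by Cacna1h. Calcium then acts through calmodulin-dependent kinases to switch on Cyp11b2, aldosterone synthase, which carries out the last steps from deoxycorticosterone to aldosterone. Because glomerulosa cells are a small share of a whole gland, fewer such cells and less RNA per cell cannot be told apart in these samples.

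Values are the deposited intensities, in linear units, and differences are 54 h minus 46 h on log2(intensity + 16). Array medians lay between 204 and 217 units, the highest value on any array was 17879, and any 2 arrays correlated with r of 0.975 to 0.989 across probe sets tested. Markers of the medulla were high on every array, with a summed level of 66430 to 70357 units at 46 h and 63479 to 68333 at 54 h. Of 13 marker lists, 5 had summed levels without overlap between the time points. Of 11 liver marker genes, all with a probe set and none at 0, 9 were tested and 8 had a higher mean at 54 h. Before adjustment, 7 of the 9 were higher with p below 0.05 in limma (4.34% of all probe sets). The time points were without overlap in 7 of the 9 (15.5% of all probe sets), and the median change was 0.77. After adjustment 1, Serpina1b, passed limma (1.10, adjusted p = 0.0343). The list summed to 3958 to 6057 units at 46 h and 8095 to 12323 at 54 h. Of 5 blood markers 4 were tested, 3 were higher and 1, Hbb-b2, passed limma (1.04, adjusted p = 0.0288), with sums of 1497 to 1942 and 2020 to 2457 units. Smooth muscle markers summed to 5610 to 6017 and 6195 to 6524 units, with 2 of 4 tested genes higher and 0 past the test. Zona fasciculata markers summed to 39894 to 42071 units at 46 h and 35623 to 39114 at 54 h. All 4 tested of 5 were lower (3 of 4 with either rescaling) and 0 passed. Their changes were uneven: 1 of 4 was without overlap, where 15.5% of all probe sets were. The median of the 4 was -0.13, with Cyp11b1 at -0.06 and Mc2r at -0.0025. The fifth list, of macrophages, is given with Dab2. The part of these shifts in the values below was not tested.

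Most of the measured transcripts stood at nearly the same level at both times. None of the 15 probe sets passed limma over all 26961 probe sets tested at an adjusted p of 0.05 (0 of 15, where 0.115% of all probe sets passed, 0.0593% with higher and 0.0556% with lower values at 54 h), and all 15 were above the filter on low values, which lay at 139 units. The arrays of the time points overlapped for aldosterone synthase and both angiotensin receptors. Both probe sets of Vsnl1, a calcium sensor, read higher on every 54 h array, by 1.23-fold and 1.40-fold, without passing the test. One of the 3 Kcnk3 probe sets read 4.53-fold higher while the other 2 were level. Before adjustment, 3 of 15 probe sets had p below 0.05 in limma, the 2 of Vsnl1 and the 1 of Kcnk3, all higher; over all probe sets tested the share was 10.1%, made up of 4.34% higher and 5.75% lower. For 4 of 15, or 26.7%, every 54 h array lay above every 46 h array. Over all probe sets the time points were without overlap in 15.5%, with 54 h above in 6.48% and below in 9.05%; probe sets of a gene are not independent. The median change was 0.0046, against -0.02 over all probe sets tested. The split of 9 higher and 6 lower depended on the scaling: it was 10 and 5 with quantile normalization and 12 and 3 with arrays centred on their medians. The 95% confidence interval excluded a 1.5-fold change either way for 12 of 15 probe sets (87.2% of all) and a change of 0.32 on the log2 scale either way for 10 (33.7% of all).

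**Figure D1:**
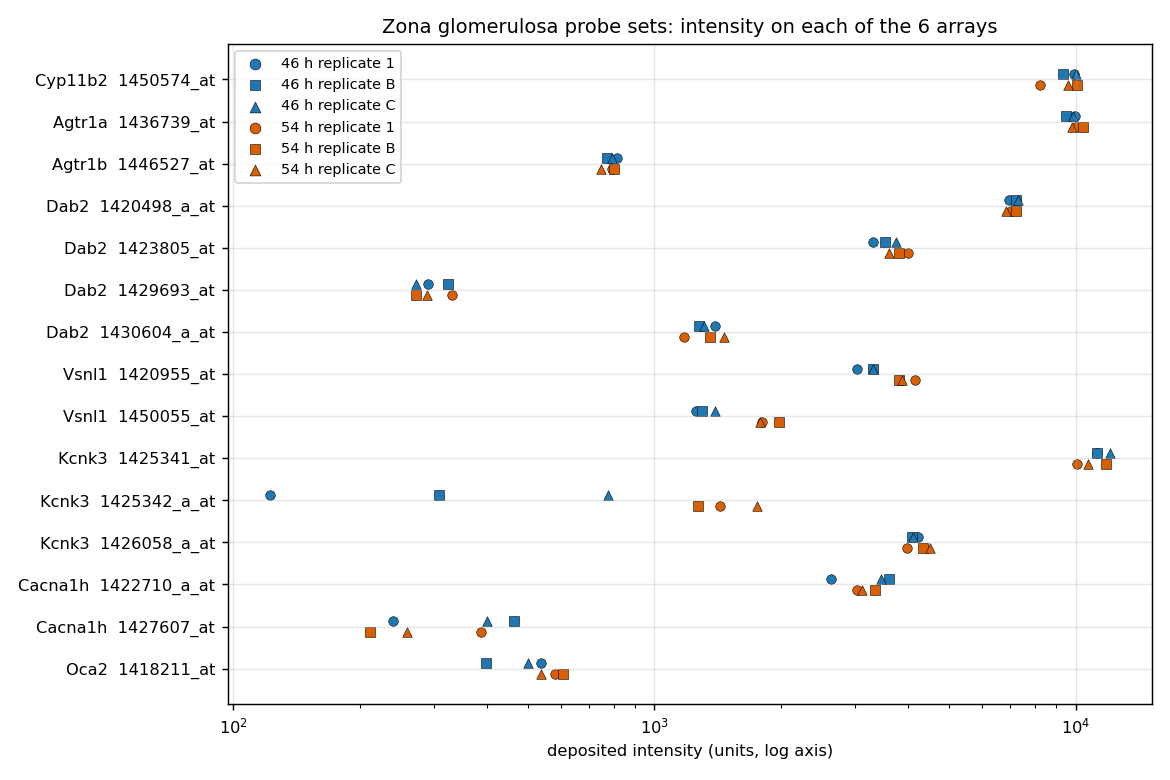
Deposited intensity (units, log axis) of each of the 15 probe sets on the 6 arrays, with blue for 46 h, orange for 54 h and the marker shape for the replicate. Blue and orange lie on top of each other for most probe sets, while both Vsnl1 probe sets, the dim Kcnk3 probe set 1425342_a_at and, by a narrow gap, the Oca2 probe set show every 54 h array above every 46 h array.

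**Figure D2:**
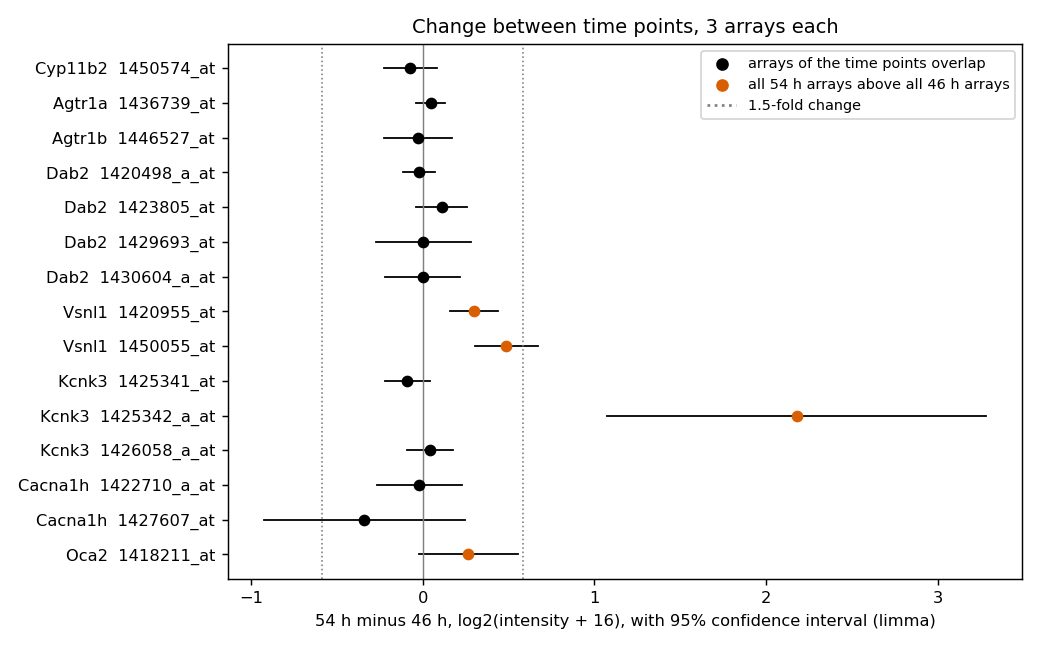
Change between the time points on the log2(intensity + 16) scale for each probe set, with limma's 95% confidence interval from 3 arrays a group; dotted lines mark a 1.5-fold change. The intervals of 12 probe sets lie between the dotted lines, and those of the second Vsnl1 probe set, of 1 Cacna1h probe set and of 1 Kcnk3 probe set do not.

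Cyp11b2 was read by 1 probe set (1450574_at). It stood at 9927, 9305 and 10020 units on 46 h arrays 1, B and C and at 8243, 10064 and 9580 units on the 54 h replicates in the same order. The groups overlapped: 54 h replicate B was the highest of all 6 arrays and 54 h replicate 1 the lowest. Means were 9751 ± 389 and 9296 ± 943 units (SD, n = 3 each), a log2 difference of -0.07 (SE 0.07; adjusted p = 0.767 in limma). The 95% interval ran from 0.854-fold to 1.06-fold. Without 54 h replicate 1 the sign turned, to 0.011. Cyp11b1, the 11-beta-hydroxylase that makes corticosterone in the zona fasciculata, is a close copy of Cyp11b2 and its neighbour, with 0 protein-coding genes between them in RefSeq's order. It read 15185 ± 416 and 14621 ± 754 units (SD, n = 3 each), a log2 difference of -0.06 (SE 0.04; adjusted p = 0.691 in limma), and was likewise lowest on 54 h replicate 1, at 13845 units. That low is not particular to this pair. The steroid genes Hsd3b1, Star and Cyp11a1 and the medulla gene Chga also read lowest there, at 16098, 16426, 15420 and 12432 units. Agtr1a and the medulla gene Th did not. Whether the Cyp11b2 probe set also binds Cyp11b1 RNA was not tested. Hsd3b1, the 3-beta-hydroxysteroid dehydrogenase related to Hsd3b6, read 17206 ± 336 and 16554 ± 538 units (SD, n = 3 each), close to the highest value on any array, where a difference may be understated.

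The angiotensin II type 1 receptors, the Gq-coupled receptors through which angiotensin II drives aldosterone output, were level too. Agtr1a (1436739_at) read 9953, 9481 and 9825 units on 46 h arrays 1, B and C and 10004, 10414 and 9801 at 54 h. Its 54 h replicates 1 and B were the highest 2 arrays, but 54 h replicate C lay within the 46 h range. The log2 difference was 0.05 (SE 0.04; adjusted p = 0.731 in limma), with an interval from 0.973-fold to 1.10-fold, among the narrowest of the 15. Agtr1b (1446527_at), the second rodent copy of the receptor, read 814, 773 and 794 units at 46 h and 795, 800 and 747 at 54 h. All 6 arrays lay within 747 to 814 units and the groups overlapped. Its log2 difference was -0.025 (SE 0.09; adjusted p = 0.951 in limma), and its sign turned with either rescaling of the arrays.

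Vsnl1 encodes visinin-like protein 1, a calcium sensor of the neuronal calcium sensor family that is also enriched in glomerulosa cells. The RefSeq table of GRCm38.p6 gives 2 start sites for it. The 250 bases before each are printed because Vsnl1 is, of these genes, the one with several probe sets of which each had no overlap between the time points. Capitals mark the GC box GGGCGG, searched on both strands.
Vsnl1 first start, chr12:11436579-11436828, minus strand: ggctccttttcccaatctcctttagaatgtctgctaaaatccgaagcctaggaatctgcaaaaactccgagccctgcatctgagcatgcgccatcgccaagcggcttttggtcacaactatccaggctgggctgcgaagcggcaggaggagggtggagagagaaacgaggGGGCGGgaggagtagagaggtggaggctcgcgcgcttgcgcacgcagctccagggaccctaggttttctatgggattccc
Vsnl1 second start, chr12:11435652-11435901, minus strand: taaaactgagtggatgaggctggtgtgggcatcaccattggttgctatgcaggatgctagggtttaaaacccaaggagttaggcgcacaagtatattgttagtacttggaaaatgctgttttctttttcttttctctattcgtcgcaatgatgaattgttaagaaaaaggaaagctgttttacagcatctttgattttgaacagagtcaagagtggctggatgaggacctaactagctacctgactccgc
The first window holds 1 GC box and the second 0, and 32.7% of 32851 mouse windows of the same length hold at least 1. Neither window holds the letters of a cAMP response element (TGACGTCA, in 1.55% of windows), an NR4A element (AAAGGTCA, 1.34%), an SF-1 element (CAAGGTCA, 1.33%) or an E-box (CACGTG, 6.02%) on either strand. The NR4A and SF-1 letters share all but their first base. Windows were at hand for 5 of the 10 genes (7 windows, of Agtr1b, Hsd3b6, Oca2, Vsnl1 and Dab2), and the other 5 windows hold none of these 5 motifs.

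The first Vsnl1 probe set (1420955_at) read 3020, 3295 and 3294 units on 46 h arrays 1, B and C and 4159, 3813 and 3860 at 54 h. Every 54 h array lay above every 46 h array. Means were 3203 ± 159 and 3944 ± 188 units (SD, n = 3 each), a log2 difference of 0.30 ± 0.06 SE, or 1.23-fold (95% interval 1.12 to 1.36; limma adjusted p = 0.139, unadjusted p = 0.000934). The second probe set (1450055_at) read 1253, 1294 and 1393 units at 46 h and 1796, 1970 and 1782 at 54 h, again without overlap. Its means were 1314 ± 71.9 and 1849 ± 105 units (SD, n = 3 each), a log2 difference of 0.49 ± 0.08 SE, or 1.40-fold (95% interval 1.24 to 1.59; limma adjusted p = 0.0751, unadjusted p = 0.000173). Both differences exceeded the spread between replicates, and the second ranked 62 of 26961 probe sets by p. Over the 6 arrays the probe sets correlated with r of 0.913, as a description. Of 3491 genes with 2 tested probe sets, 38, or 1.09%, had both with every 54 h array above every 46 h array. Leaving out each array in turn gave log2 changes of 0.26 to 0.32 and of 0.44 to 0.53. The limma adjusted p of the second probe set ran from 0.00238 to 0.359 over 16 alternatives. It was below 0.05 in 4, all fits of the same arrays: quantile normalization (0.0369), median centring (0.0473), a robust fit (0.0495) and array weights (0.00238). With array weights 3466 of all 26961 probe sets passed, against 31 in the main fit. Vsnl1 is also expressed by neurons. Of 7 nerve and Schwann cell markers 5 had a probe set and none was at 0; their summed level was 1483 to 1561 units at 46 h and 1473 to 1593 at 54 h. All 8 tested medulla markers of 9 had a lower mean at 54 h (7 of 8 with either rescaling), and 0 passed the test. The part of neurons and of medulla cells in the Vsnl1 values was not tested.

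Kcnk3 encodes TASK-1, a background potassium channel that sets the resting potential of glomerulosa cells, and its 3 probe sets did not move together. The brightest (1425341_at) read 11240, 11212 and 12086 units on 46 h arrays 1, B and C and 10049, 11804 and 10673 at 54 h. These overlapped, with a log2 difference of -0.09 (SE 0.06; adjusted p = 0.644 in limma). The second (1426058_a_at) read 4213, 4093 and 4110 units at 46 h and 3981, 4330 and 4512 at 54 h, with a log2 difference of 0.04 (SE 0.06; adjusted p = 0.850 in limma). The third (1425342_a_at) read 122, 308 and 775 units at 46 h and 1432, 1269 and 1747 at 54 h. Its 54 h arrays lay above all 46 h arrays, but the 46 h arrays themselves differed 6.35-fold from lowest to highest. The log2 change was 2.18 ± 0.49 SE, or 4.53-fold with a 95% interval from 2.11 to 9.72 (limma adjusted p = 0.168, unadjusted p = 0.00147). Without 46 h replicate 1 it was 1.55 and without 46 h replicate C 2.81, where it passed limma (adjusted p = 0.0470). It also passed with array weights, at 3.16 (limma adjusted p = 0.0022). In that fit 3466 of all 26961 probe sets passed, against 31 in the main fit. The adjusted p over 16 alternatives ran from 0.00219 to 0.559. With sign kept, its main change of 2.18 was the third highest of the 26961 probe sets, and decreases were not ranked with it. Of 2320 genes with at least 3 tested probe sets, Kcnk3 had the widest gap between the highest and the lowest change of its probe sets, 2.27, where the median gap was 0.23. Kcnk3 is also expressed in brown fat. Of 9 adipose markers 7 had a probe set and none was at 0; their summed level was 27174 to 33522 units at 46 h and 28584 to 36474 at 54 h. Of the 7 tested, 4 were higher, 3 were lower and 0 passed. Of these 7, 3 were without overlap, where 15.5% of all probe sets were. Among the 3 were the brown fat genes Cidea and Ucp1, with 0.67 and 0.56. The general fat genes Adipoq and Fabp4 had -0.11 and -0.06 with overlap, and the other adipose genes tested are not named here. The part of fat in the Kcnk3 values was not tested.

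**Figure D3:**
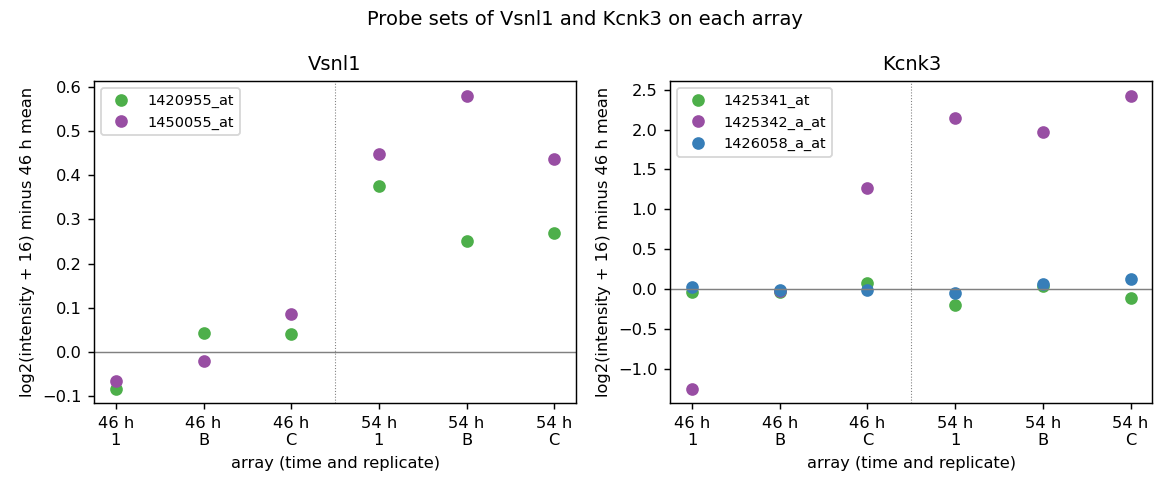
Values on each array as log2(intensity + 16) minus the 46 h mean of the same probe set, for the 2 probe sets of Vsnl1 (left) and the 3 of Kcnk3 (right); the vertical scales differ. The Vsnl1 probe sets lie together and higher at 54 h, whereas only 1425342_a_at among the Kcnk3 probe sets leaves the zero line.

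**Figure D4:**
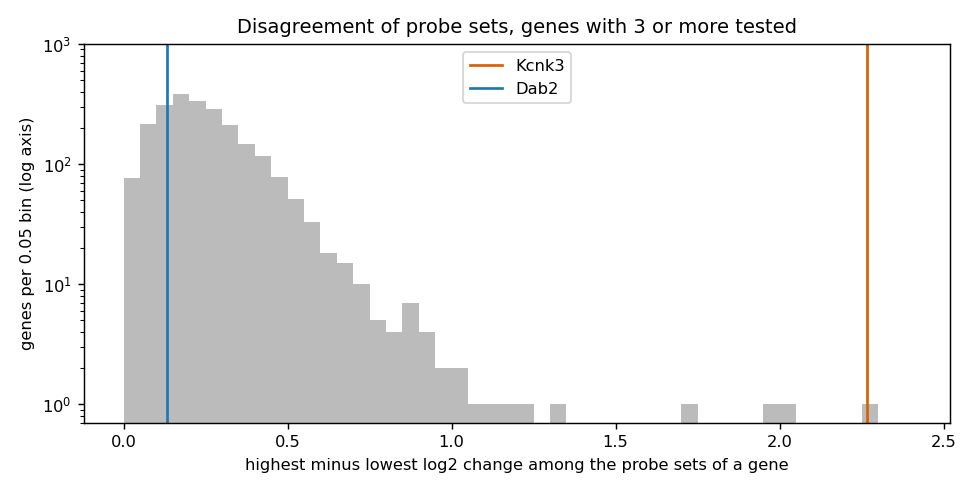
Histogram over 2320 genes with 3 or more tested probe sets of the gap between the highest and lowest log2 change of a gene's probe sets; the vertical axis is logarithmic. Lines mark Dab2 at 0.13 and Kcnk3 at 2.27, the widest gap of all.

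Cacna1h encodes the T-type calcium channel CaV3.2, which opens near the resting potential of glomerulosa cells. Its brighter probe set (1422710_a_at) read 2631, 3604 and 3442 units on 46 h arrays 1, B and C and 3017, 3345 and 3112 at 54 h. All 54 h arrays lay inside the 46 h range, and the log2 difference was -0.02 (SE 0.11; adjusted p = 0.972 in limma). The dimmer one (1427607_at) read 239, 463 and 401 units at 46 h and 387, 211 and 259 at 54 h, with a log2 difference of -0.34 (SE 0.26; adjusted p = 0.709 in limma). Its interval, from 0.527-fold to 1.19-fold, was the widest of the 15 probe sets after that of the third Kcnk3 probe set. Leaving out replicate 1 gave -0.61 (that of 46 h) or -0.57 (54 h), leaving out replicate B gave -0.15 (46 h) or -0.16 (54 h), and array weights gave -0.069. Both probe sets read lowest at 46 h on replicate 1, and over 6 arrays they correlated with r of 0.510, as a description.

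Dab2 encodes an adaptor for clathrin-mediated uptake of receptors of the LDL receptor family and marks the glomerulosa layer. Its brightest probe set (1420498_a_at) read 6930, 7196 and 7282 units on 46 h arrays 1, B and C and 7036, 7219 and 6844 at 54 h. The groups overlapped, and the log2 difference was -0.021 (SE 0.04; adjusted p = 0.908 in limma). The other 3 probe sets (1423805_at, 1430604_a_at and 1429693_at) had 46 h means of 3518, 1327 and 296 units and log2 changes of 0.11, 0.00058 and 0.0046, with overlap and adjusted p from 0.613 to 0.999 in limma. The 4 changes lay within 0.13 of each other, a narrower gap than in 78.8% of genes with at least 3 probe sets. Across arrays the 4 probe sets shared no pattern, with r from -0.68 to 0.35. Dab2 is expressed in macrophages too. Of 9 macrophage markers, all tested and none at 0, 6 were lower. Their summed level was 19711 to 20567 units at 46 h and 17635 to 18487 at 54 h, without overlap. The part of macrophages in the Dab2 values was not tested.

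Oca2 encodes the P protein, a membrane transporter of melanosomes, and was read by 1 probe set (1418211_at). It stood at 537, 398 and 500 units on 46 h arrays 1, B and C and at 580, 606 and 539 at 54 h. The groups did not overlap, but 54 h replicate C exceeded 46 h replicate 1 by only 1.81 units. Means were 479 ± 71.9 and 575 ± 33.9 units (SD, n = 3 each), a log2 difference of 0.27 (SE 0.13; adjusted p = 0.525 in limma, unadjusted p = 0.0650). Without 46 h replicate B it was 0.14. Melanocyte markers summed to 1016 to 1415 units at 46 h and 1165 to 1307 at 54 h (5 of 5 with a probe set, none at 0).

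Related genes were grouped in 4 lists and read from each gene's brightest probe set, and 0 genes of these lists passed limma over all probe sets. Of 11 genes for steroid steps shared by aldosterone and corticosterone, 8 were tested and 0 reached an unadjusted p of 0.05. Their median log2 change was -0.05, against -0.02 over all probe sets. All 8 means were lower at 54 h (7 with quantile normalization, 6 with median centring). The smallest p values were those of Cyp11a1, the side-chain cleavage enzyme, and Hsd3b1 at -0.06 each. Star, the mitochondrial cholesterol carrier, followed at -0.05. These stood at 16538 to 17478 units at 46 h, near the highest value on any array. On dimmer probe sets Cyp11a1 had 0.15 with overlap and -0.20 without, and Star had -0.05 and -0.03. The list as drawn up includes Cyp11b1, which makes corticosterone in the zona fasciculata and so is not itself a shared step. Zona fasciculata markers, which also include Cyp11b1, had lower sums at 54 h as given above. Their part in these values was not tested.

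Of 31 genes of the angiotensin system and of calcium signalling, 22 were tested, with a median of -0.012. The 54 h mean was the smaller in 14 of the 22 genes. That count fell to 10 under quantile normalization and to 9 under median centring. Of the 22, 6 were without overlap, where 15.5% of all probe sets were. Before adjustment, 3 with higher and 2 with lower values had p below 0.05 in limma (4.34% and 5.75% of all probe sets). Rgs2, which shortens Gq signals such as those of the angiotensin receptor, had means of 8119 ± 878 units (46 h) and 9980 ± 614 units (54 h) with SD over 3 arrays, a log2 difference of 0.30 (SE 0.08; adjusted p = 0.224 in limma), without overlap. The kinase genes Camk2d and Prkd1 had 0.29 ± 0.09 and 0.27 ± 0.10 SE (limma adjusted p = 0.333 and 0.416). The 2 with lower values, Camk2g and Agtrap, had -0.20 ± 0.08 and -0.26 ± 0.11 SE (limma adjusted p = 0.446 and 0.461). For Camk2g and Agtrap every 54 h array lay below every 46 h array. Of the other 3 tested probe sets of Camk2d, 1 had -0.24 and the others 0.13 and 0.06, and the other one of Prkd1 had -0.06, whereas the 4 of Rgs2 had 0.16 to 0.62.

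Of 23 other ion channels and pumps of the excitable glomerulosa membrane, 17 were tested, with a median of 0.026. Before adjustment, 0 with higher and 3 with lower values had p below 0.05 in limma (4.34% and 5.75% of all probe sets). These were Cacna1g, the T-type channel CaV3.1, with a log2 change of -0.52 ± 0.13 SE, the chloride channel gene Clcn2 with -0.58 ± 0.20 SE and Atp1b1, a sodium pump subunit, with -0.21 ± 0.07 SE (limma adjusted p = 0.202, 0.366 and 0.368), all without overlap. The other 4 probe sets of Atp1b1 had -0.28 to 0.04. Cacna1g read 372, 312 and 296 units on 46 h arrays 1, B and C and 227, 232 and 206 at 54 h. The potassium channel gene Kcnj5 lay under the filter in both of its probe sets, at 103 units or less on every array. The other 4 calcium channel genes tested, Cacna1d, Cacna1c, Cacna2d1 and Cacnb2, had -0.17, 0.07, 0.10 and 0.025, and the second probe set of Cacna1d had 0.05.

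Of 23 genes for zonal identity and for WNT, hedgehog, NURR and nuclear receptor factors, 22 were tested, with a median of 0.0081. Before adjustment, 2 with higher and 3 with lower values had p below 0.05 in limma (4.34% and 5.75% of all probe sets). The smallest p values were those of the growth factor receptor gene Fgfr2 (-0.29 ± 0.08 SE), the WNT target Axin2 (-0.24 ± 0.09 SE) and the sulfatase gene Sulf1 (0.37 ± 0.14 SE), with limma adjusted p from 0.287 to 0.427. Another Fgfr2 probe set had 0.05 and another of Sulf1 0.06. Nr4a2 encodes NURR1, which can activate Cyp11b2, and its probe sets were examined after their values were seen. The brightest read 1519 units at 46 h and 1570 at 54 h, a log2 change of 0.04, whereas the other 3 tested had 1.29 to 1.79, all below the threshold (limma adjusted p = 0.204 to 0.379). On those 3 the high values were those of 54 h replicates B and C: 1455034_at read 198, 156 and 238 units at 46 h and 299, 1314 and 899 at 54 h.

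**Figure D5:**
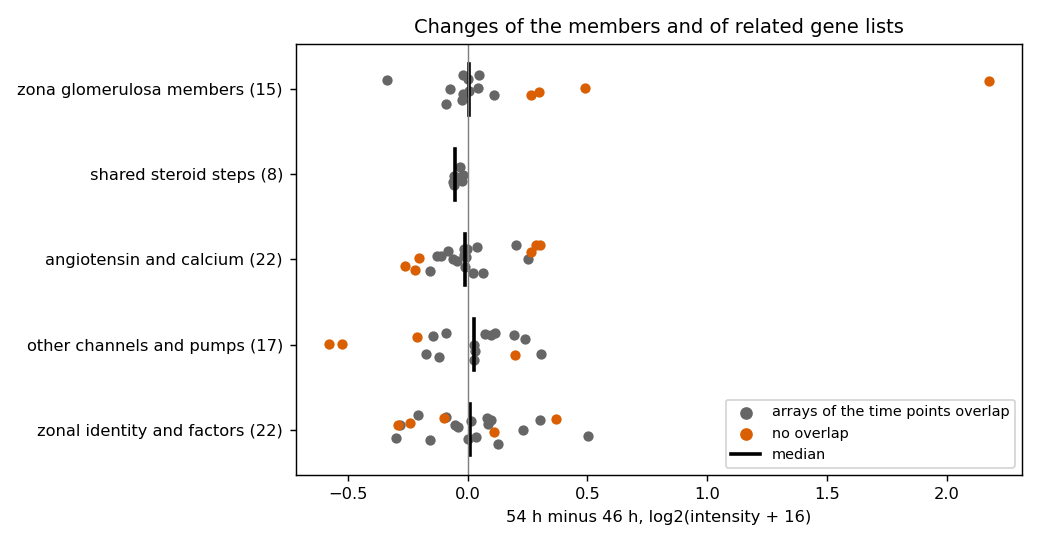
Change between the time points on the log2(intensity + 16) scale for the 15 zona glomerulosa probe sets and for the tested genes of 4 related lists, each gene at its brightest probe set (numbers of points in brackets); orange points have no overlap between the time points and bars are medians. The medians lie between -0.05 and 0.026, and 1 Kcnk3 probe set lies far to the right of all other points.

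Across arrays, no single array was low for all members. Of the 8 genes at their brightest probe set, 2 were lowest on each of 46 h replicates 1 and B and 54 h replicates 1 and C, and 3 were highest on 54 h replicate B. The 5 genes whose pattern over the 6 arrays was most like that of Cyp11b2, by Pearson r on the log2 scale over 13772 genes, were Pipox (r of 0.994), Dcaf11 (0.993), Rec8 (0.993), Slc25a29 (0.991) and Ubn2 (0.990). All 5, like Cyp11b2, read lowest on 54 h replicate 1, which their choice by likeness to Cyp11b2 largely sets. With 6 arrays a high r is common here: 260 genes, or 1.89%, had r above 0.9.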

How the data were processed

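Per the labels' protocols, biotin-labelled RNA of whole adrenals, prepared with a small-sample column kit, was hybridised. The authors deposited 1 table for all 6 arrays, in which each probe set has a linear intensity for every array; summarisation, background correction and normalization are not given in the sources used here. Left out were 64 Affymetrix controls, 1 probe set without values and 1 with a damaged value. Genes were named from the platform annotation where it names exactly 1 gene (34848 probe sets; 928 name several, 9159 none), with 0 symbols changed through RefSeq's gene IDs. Array medians differed by 0.0728 (log2) after filtering, under the limit of 0.1, so no further normalization was applied.

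Values were taken as log2(intensity + 16), and probe sets with a mean above the 40th percentile were kept. Time points were compared over all of them with limma 3.58.1 in R 4.3.3 (lmFit and eBayes, trend on mean intensity; two-sided), with p adjusted by Benjamini-Hochberg and called at 0.05. An exact permutation test of 3 against 3 arrays cannot go below p = 0.1. Adding 16 understates the change of dim probe sets. On simulated data with 26961 probe sets, changes of 1.25-fold, 1.5-fold and 2-fold were recovered in 6.8%, 40.0% and 76.6% of cases. The simulated noise was independent between arrays, so it lacks the links between arrays given below. These rates are averages over all probe sets, with a median SE of 0.12. The zona glomerulosa probe sets had a median SE of 0.08, so the rates are not theirs. The genes, lists and tests were chosen with earlier results of these data known. Named are all members, close copies of them (Cyp11b1, Hsd3b1), per pathway list the 3 genes with the smallest p, and the 5 genes most correlated with Cyp11b2; other names are given as context, and marker lists by counts and sums. Alternatives changed the scaling, filter, offset, variance model, array weights, replicate block or left out each array. Figures were drawn with matplotlib 3.10.9 in Python 3.11.15.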

Additional observations from a re-analysis of the deposited data

How the results depend on the processing

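Over 16 alternatives, the 15 probe sets gave 238 changes, of which 212 kept their direction and their side of the threshold, 8 moved past the threshold in the same direction and 18 changed sign without passing; the largest after a change of sign was 0.14. The count of all probe sets passing limma was 31 and became 47 with quantile normalization, 50 with median centring, 48 with a filter at the 60th percentile, 3 without an intensity trend, 61 with a robust fit, 3466 with array weights, and 2 to 65 when each array was left out. The count of zona glomerulosa probe sets passing was 0 and became 1 (Vsnl1 1450055_at) with quantile normalization, median centring and a robust fit, 3 with array weights (both of Vsnl1 and Kcnk3 1425342_a_at), and 0 to 1 when each array was left out. Changes of sign were, for Agtr1b, 0.00030 with quantile normalization, 0.0020 with median centring and -0.044 to 0.0058 leaving out arrays. For Cacna1h 1422710_a_at they were 0.0085 with median centring, 0.14 with array weights and -0.16 to 0.068 leaving out arrays. For Dab2 they were 0.0059 with median centring (1420498_a_at), -0.015 with array weights and -0.072 to 0.069 leaving out arrays (1429693_at), and -0.069 to 0.086 leaving out arrays (1430604_a_at). For Cyp11b2 leaving out arrays gave -0.13 to 0.011. The mean over a gene's probe sets in place of the brightest moved Dab2 to 0.024, Vsnl1 to 0.39 and Kcnk3 to 0.71. The cause of these shifts was not tested.

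With the replicate letter as a block, 45 probe sets passed, among them 1 zona glomerulosa probe set, Kcnk3 1425342_a_at (2.18, limma adjusted p = 0.0340). The letters gave no sign of pairing: arrays of the same letter deviated from their group means with correlations of -0.060, -0.41 and -0.49. Arrays of different letters gave -0.043 to 0.46. The highest were 46 h replicate B with 54 h replicate C (0.46) and 46 h replicate C with 54 h replicate B (0.38). What links these arrays was not tested, and the main fit does not model it. Array number limits precision, and whether bright probe sets near the highest values understate change was not tested.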

Other observations

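Wnt4 and Shh, a pair chosen after their values were seen, had lower means at 54 h on their brighter probe sets without passing the test, while of the 22 tested genes of their list 12 were higher and 10 lower. Wnt4, a signal that maintains glomerulosa identity, read 2956, 4326 and 3810 units on 46 h arrays 1, B and C and 2769, 3235 and 2906 at 54 h on its brighter probe set. Its 2 probe sets had log2 changes of -0.30 ± 0.13 SE and -0.24 ± 0.13 SE (limma adjusted p = 0.466 and 0.571), and both overlapped. Shh, the hedgehog ligand of subcapsular progenitors, read 3210, 4531 and 4258 units at 46 h and 3719, 3010 and 3068 at 54 h, a log2 difference of -0.28 (SE 0.13; adjusted p = 0.503 in limma). Its dimmer probe set had -0.0072 (adjusted p = 0.992 in limma). On 46 h replicate 1 the brighter Wnt4 and Shh probe sets both read lower than on the other 46 h arrays, as did the brighter Cacna1h probe set.

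The probe set that names Hsd3b6, Hsd3b3 and Hsd3b2 together (1460232_s_at) read 8935, 9514 and 9246 units at 46 h and 9034, 8832 and 8754 at 54 h, a log2 difference of -0.06 (SE 0.04; adjusted p = 0.654 in limma). It cannot be assigned to 1 of these genes.

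The only probe sets with a larger log2 increase at 54 h than Kcnk3 1425342_a_at were high on some arrays and dim on the rest. That of 4933402J07Rik read 93, 56 and 89 units at 46 h and 2725, 102 and 3815 at 54 h. That of 4930451G09Rik read 9895 units on 54 h replicate 1 and 69 to 99 on the other 5 arrays. The Kcnk3 probe set differed from both in that all 3 of its 54 h arrays were high, while its 46 h arrays spanned 122 to 775 units.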
